A study of Mus musculus with 26 samples.

Results

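Expression of the 9 Pax genes, Pax1 to Pax9, was examined in 10 RNA-seq libraries of mouse embryonic cells. The members are the rows of the deposited expression table that carry these gene symbols, which makes 9 of 52454 symbols and 9 of 52609 gene rows. The study asked what the de novo DNA methyltransferases DNMT3A and DNMT3B do in fibroblasts and tissues of the embryo.

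Each condition had 1 library, and the labels give E14.5 as the embryonic day of all 10. The first pair were 2i-MEFs, female embryonic fibroblasts of a cross between 129X1/SvJ and MSM/Ms, grown from chimeric embryos made with ES cells kept in 2i medium and carrying a CRISPR/Cas9 knockout of Dnmt3a (Dnmt3a KO) or Dnmt3b (Dnmt3b KO). Each ES cell line is a clone, and host cells of the chimera were removed by cell sorting and drug selection. No WT 2i-MEF library was analysed here, and both 2i-MEF libraries come from knockout cells. The other 8 libraries were male and labelled C57BL6: MEFs of Dnmt3a WT and Dnmt3a KO embryos, each cultured with DMSO or with GSK126, an inhibitor of the Polycomb enzyme EZH2, and heart and liver of 1 Dnmt3a WT and 1 Dnmt3a KO embryo at E14.5. Strain and sex therefore cannot be told apart from the origin of the cells when 2i-MEFs are set beside the other libraries. Whether DMSO and GSK126 cultures came from the same embryo is not given in the sources used here.

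Pax genes encode transcription factors that bind DNA through a paired domain and set cell identity in organs of the embryo. PAX8 acts in thyroid and, together with PAX2, in kidney, and PAX5, the other relative in its subfamily, acts in B cells. PAX1 and PAX9 act in the sclerotome, the source of the vertebrae, and in the pharyngeal pouches and palate. PAX3 and PAX7 mark muscle progenitors and neural crest, and PAX4 and PAX6 act in pancreas and eye. In most embryonic cells Pax genes are silent and many are known targets of Polycomb repression, which is why their level after loss of a DNA methyltransferase is of interest.

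The values are FPKM, fragments scaled to the length of the transcript in kilobases and to the mapped fragments of the library. No read counts were in the table, so depth was recovered from the spacing of low FPKM values, which gave from 9145481 to 26153796 mapped reads per library. Between 93.4% and 95.9% of values under 10 reads lay within 0.1 of a whole read, a tolerance that spans 20% of the range. The reads behind a member depend on which transcript they came from, so they are given from the shortest to the longest coding transcript. Intervals are 95% counting intervals at the smallest of these numbers, and they cover counting error only, since 1 library has no replicate spread and its reads carry no molecular identifiers. No p-value can be had within a pair for this reason, and a fit over several pairs is given after the tissues.

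The targeted genes were examined first. Dnmt3a had 4.21 FPKM in Dnmt3a KO 2i-MEFs, against 23.9 FPKM in Dnmt3b KO 2i-MEFs. Dnmt3b was at 1.81 and 0.817 FPKM in these libraries. In liver Dnmt3a had 12.7 FPKM under the Dnmt3a KO label, against 53.5 FPKM in WT. The Dnmt3a KO 2i-MEF and liver libraries thus hold less Dnmt3a RNA under the Dnmt3a KO label, whereas the MEFs and the heart do not. In MEFs with DMSO, Dnmt3a had 85.7 FPKM under the Dnmt3a KO label, against 26.1 FPKM in WT. With GSK126 the levels were 84.5 and 19.3 FPKM, and in heart 125 and 55.0 FPKM. The value of a whole gene cannot show whether targeted exons are missing. Heart and liver come from the same embryos, yet Dnmt3a RNA was higher under the Dnmt3a KO label in heart and lower in liver. Every direction below that concerns MEFs, heart or liver therefore rests on the library labelled Dnmt3a KO. Xist, the RNA of the inactive X chromosome, was at 27.9 and 32.1 FPKM in the female 2i-MEFs and at most 0.10 FPKM elsewhere. Summed fibroblast markers (Col1a1, Col1a2, Col3a1, Pdgfra, Thy1 and Vim) were between 11177 and 20242 FPKM in the 6 fibroblast libraries. Summed cardiomyocyte markers were at 18672 FPKM or more in heart, and summed hepatocyte markers at 10661 FPKM or more in liver.

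The genes lie on 6 chromosomes of mm10. Pax8 (ENSMUSG00000026976.15) spans chromosome 2 from 24420560 to 24475599 on the minus strand, and Pax1 (ENSMUSG00000037034.15) lies on the same chromosome from 147361925 to 147393295 on the plus strand. Pax9 (ENSMUSG00000001497.18) spans chromosome 12 from 56691767 to 56712822 on the plus strand. The promoter windows of these 3 genes are shown because they are the members found at 1 FPKM or more in any library, and because the study concerns methylation of CG dinucleotides. The sequences are from RefSeq on GRCm38.p6, the assembly called mm10, and run 5′ to 3′ from 250 bases before to 50 bases after the RefSeq start, with each CG in capitals.
Pax8, chr2:24475550-24475849, minus strand: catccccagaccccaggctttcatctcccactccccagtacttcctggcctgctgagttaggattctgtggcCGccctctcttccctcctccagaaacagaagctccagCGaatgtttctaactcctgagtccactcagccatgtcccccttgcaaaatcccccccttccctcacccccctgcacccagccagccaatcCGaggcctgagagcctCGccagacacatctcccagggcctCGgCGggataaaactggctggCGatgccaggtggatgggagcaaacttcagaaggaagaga
Pax1, chr2:147364744-147365043, plus strand: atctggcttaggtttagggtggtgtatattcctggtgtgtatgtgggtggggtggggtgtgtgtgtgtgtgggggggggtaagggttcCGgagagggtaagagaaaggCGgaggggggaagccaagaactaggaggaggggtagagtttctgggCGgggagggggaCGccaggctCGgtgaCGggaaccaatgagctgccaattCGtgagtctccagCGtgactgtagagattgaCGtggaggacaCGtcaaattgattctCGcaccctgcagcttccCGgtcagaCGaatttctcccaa
Pax9, chr12:56695221-56695520, plus strand: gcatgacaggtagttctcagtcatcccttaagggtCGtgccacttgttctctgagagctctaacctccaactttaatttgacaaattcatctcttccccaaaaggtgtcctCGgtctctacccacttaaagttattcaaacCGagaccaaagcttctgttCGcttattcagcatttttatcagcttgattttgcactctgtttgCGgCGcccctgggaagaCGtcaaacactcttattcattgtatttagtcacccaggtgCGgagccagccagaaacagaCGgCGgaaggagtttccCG
The RefSeq start of Pax8 is the same base as the start of the gene in the table, whereas those of Pax1 and Pax9 lie 3069 and 3704 bases inside it. CG, which reads the same on both strands, occurs 7 times in the Pax8 window, 13 times in that of Pax1 and 11 times in that of Pax9. Among 32851 such windows of 27025 genes, the median was 7, and 52.1%, 37.9% and 41.4% hold at least as many as Pax8, Pax1 and Pax9, respectively. The observed-to-expected ratio of CG was 0.288 for Pax8, 0.639 for Pax1 and 0.679 for Pax9. RefSeq windows were matched for 7 members, and their 10 windows held between 7 and 30 CG, with a median of 16.5. Pax2, which has 3 windows, holds both the lowest number, shared with Pax8, and the highest. Pax8, which differed most between libraries below, thus has a window of median CG content among all windows and a GC content of 59.3%. No methylation value was analysed here.

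Across the 10 libraries, 3 members reached 1 FPKM. Pax1 did so in all 6 fibroblast libraries, and Pax8 and Pax9 did so in 3 libraries each. The remaining 6 members stayed at or below 0.386 FPKM in every library. Pax1, Pax8 and Pax9 together made up between 93.4% and 98.8% of the summed Pax FPKM in fibroblasts, against 15.6% and 17.6% in WT and Dnmt3a KO heart and 36.2% and 70.3% in WT and Dnmt3a KO liver. The sum itself fell from between 3.54 and 27.4 FPKM in fibroblasts to at most 0.458 FPKM in heart and liver, so shares in the tissues stand on few reads. Pax1 was the highest member in 5 fibroblast libraries, and Pax8 was the highest in Dnmt3a KO 2i-MEFs, where it made up 60.6% of the sum. In bulk RNA, fewer cells with a transcript and less of it per cell cannot be told apart.

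**Figure D1:**
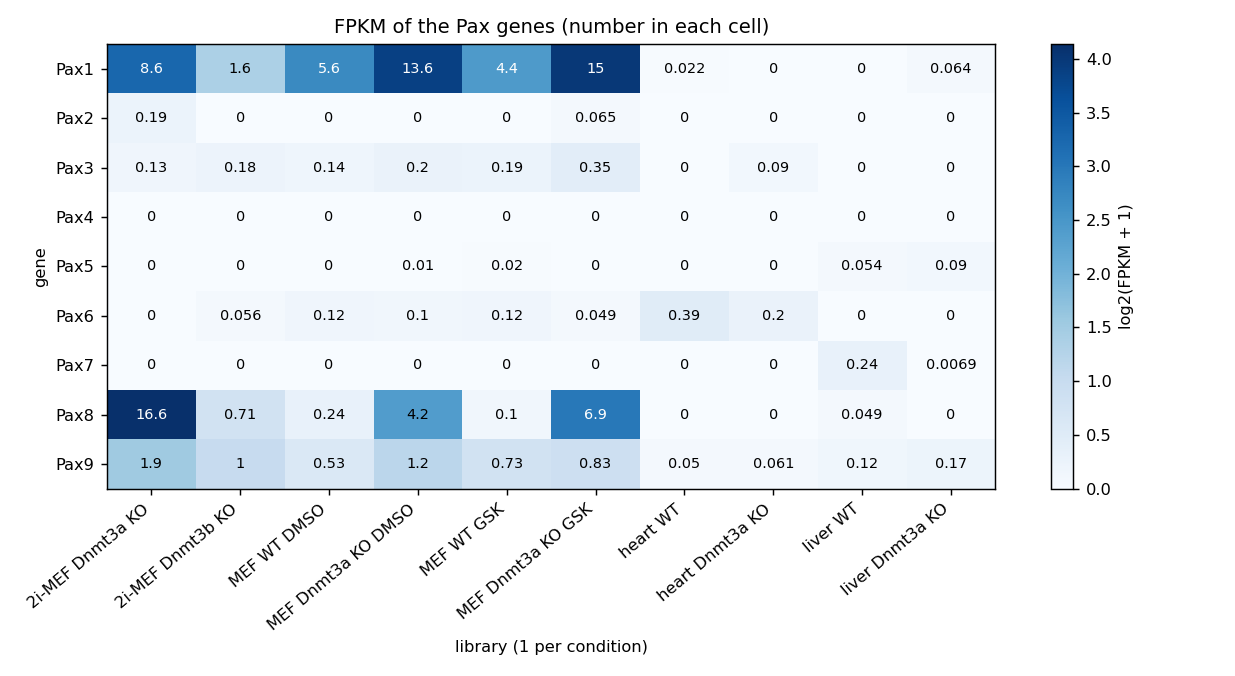
FPKM of Pax1 to Pax9 (rows) in the 10 libraries (columns, 1 library per condition), with the value in each cell and shading by log2(FPKM + 1). Pax1, Pax8 and Pax9 hold nearly all of the signal, Pax8 is dark in the 3 fibroblast libraries labelled Dnmt3a KO, and Pax4 is listed at 0 in all 10 libraries.

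Pax8 was high in the 3 fibroblast libraries labelled Dnmt3a KO and low in the other 7 libraries. In 2i-MEFs it had 16.6 FPKM in Dnmt3a KO (78 to 428 reads, interval 13.1 to 20.7 FPKM), against 0.715 FPKM in Dnmt3b KO (3 to 15 reads, interval 0.157 to 2.22 FPKM). In MEFs with DMSO it had 4.24 FPKM under the Dnmt3a KO label (47 to 256 reads), against 0.236 FPKM in WT (2 to 10 reads). In MEFs with GSK126 it had 6.92 FPKM under the Dnmt3a KO label (63 to 345 reads), against 0.101 FPKM in WT (1 to 5 reads). The counting intervals of the libraries within each of these 3 pairs did not overlap. In heart Pax8 was listed at 0 in both libraries, and in liver it was at 0.0491 FPKM in WT (1 to 3 reads) and listed at 0 in Dnmt3a KO.

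In order of level, Dnmt3a KO 2i-MEFs stood first, followed by the MEFs labelled Dnmt3a KO with GSK126 and then with DMSO. Neighbours in this order were compared by the interval of their fold. It excluded 1 between the first and the second (1.70 to 3.40), between the second and the third (1.09 to 2.42) and between the third and Dnmt3b KO 2i-MEFs (1.81 to 28.2). Among the 7 lower libraries, the fold interval excluded 1 in 1 of 21 pairs at the fewest reads, Dnmt3b KO 2i-MEFs above Dnmt3a KO liver, with a lower bound of 1.16-fold. At the most reads it did so in 11 of 21 pairs, and Dnmt3b KO 2i-MEFs were then above each of the other 6. The order of most lower libraries thus depends on the transcript that the reads are taken to come from.

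**Figure D2:**
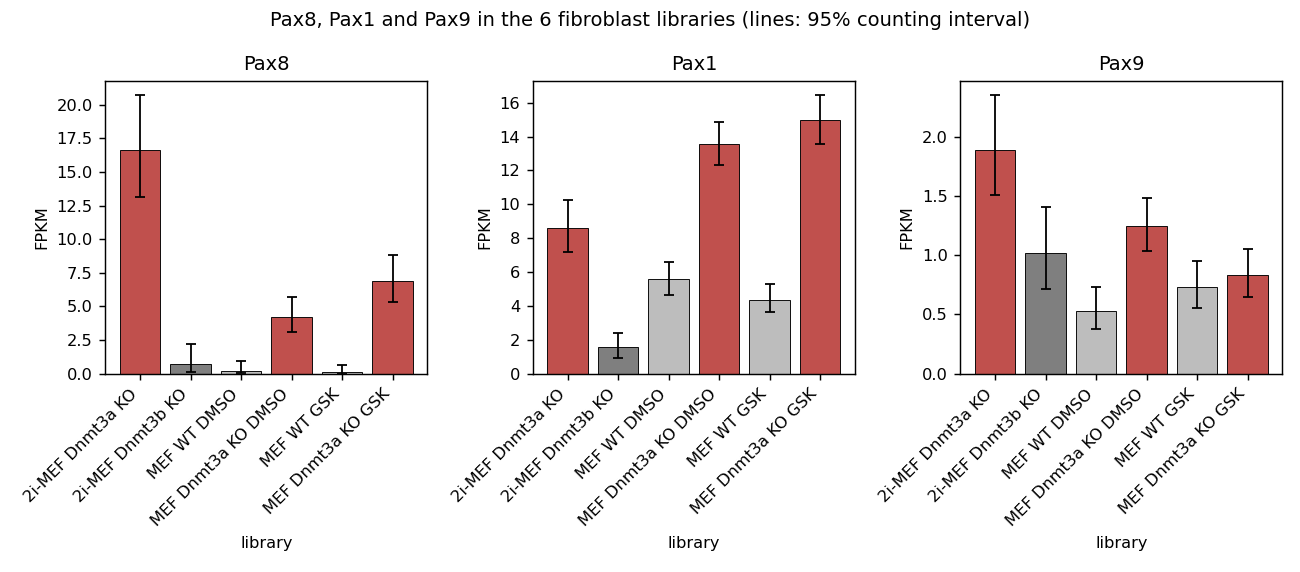
FPKM of Pax8, Pax1 and Pax9 (vertical axes from 0, with a scale of its own for each gene) in the 6 fibroblast libraries, with red for libraries labelled Dnmt3a KO, dark grey for Dnmt3b KO and light grey for WT; lines are 95% counting intervals at the fewest reads, with no replicate spread. For Pax8 and Pax1 every red bar is higher than the grey bar it is compared with and their intervals are apart, whereas for Pax9 with GSK126 they overlap (0.651 to 1.06 and 0.551 to 0.948 FPKM).

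Pairs of libraries were compared by the log2 ratio of FPKM + 1, and a gene was counted when this ratio reached 2-fold. In 2i-MEFs 2 of 9 members, Pax8 and Pax1, were higher by 2-fold or more in Dnmt3a KO than in Dnmt3b KO, beside 1.43% of all 52454 symbols, and 0 members were 2-fold lower, beside 0.906%. In MEFs with DMSO the same 2 members were 2-fold higher in the library labelled Dnmt3a KO, beside 1.11% of symbols, and 0 were lower, beside 0.528%. With GSK126 the 2 members were again higher, beside 0.745%, and 0 were lower, beside 0.764%. Most of the symbols in the table are silent in both libraries. Where the mean over the pair was at least 1 FPKM, 4.86%, 3.82% and 2.51% of genes were 2-fold higher in the 3 comparisons. At that level stood 3 members in 2i-MEFs, Pax9 with Pax1 and Pax8, and 2 in either MEF comparison, Pax1 and Pax8 alone. The median log2 ratio of the 9 members was 0.00, 0.01 and 0.08, beside 0.00 for all symbols in each comparison, a median that rests on members with little or no RNA. The 3 comparisons share no library, but they all set a library labelled Dnmt3a KO first.

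The log2 ratio of Pax8 was 3.36 in 2i-MEFs, 2.09 in MEFs with DMSO and 2.85 in MEFs with GSK126. In FPKM these are 23.2-fold (interval 7.20 to 108), 18.0-fold (interval 4.32 to 140) and 68.5-fold (interval 9.98 to 2314) higher levels. The intervals are wide because the lower library of each pair holds few Pax8 reads, and the lowest bound was 4.32-fold. Among 52454 symbols, Pax8 ranked 63rd, 117th and 30th from the highest log2 ratio down in these comparisons, with the library labelled Dnmt3a KO first. By the size of the ratio in either direction it ranked 109th, 167th and 63rd.

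Pax1, expressed in sclerotome and needed for vertebrae and thymus, was present in all 6 fibroblast libraries and was highest in the MEFs labelled Dnmt3a KO. In 2i-MEFs it had 8.59 FPKM in Dnmt3a KO (125 to 229 reads), against 1.57 FPKM in Dnmt3b KO (19 to 35 reads). In MEFs with DMSO it had 13.6 FPKM under the Dnmt3a KO label (462 to 848 reads), against 5.57 FPKM in WT (133 to 244 reads). In MEFs with GSK126 it had 14.95 FPKM under the Dnmt3a KO label (421 to 772 reads), against 4.38 FPKM in WT (113 to 207 reads). Unlike Pax8, Pax1 was well above 1 FPKM in WT MEFs. The higher level was 5.46-fold in 2i-MEFs (interval 3.39 to 9.48), 2.44-fold with DMSO (interval 2.01 to 2.98) and 3.42-fold with GSK126 (interval 2.76 to 4.24). The log2 ratios were 1.90, 1.15 and 1.57, below those of Pax8 in each comparison. In heart Pax1 was at 0.0216 FPKM in WT and listed at 0 in Dnmt3a KO. In liver it was listed at 0 in WT and was at 0.0636 FPKM in Dnmt3a KO, on at most 4 reads.

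Pax9, the closest relative of Pax1, was the only member above 0 in all 10 libraries. In 2i-MEFs it had 1.89 FPKM in Dnmt3a KO (82 to 83 reads), against 1.02 FPKM in Dnmt3b KO (37 to 38 reads). In MEFs with DMSO it had 1.25 FPKM under the Dnmt3a KO label (126 to 129 reads), against 0.527 FPKM in WT (38 reads), while with GSK126 the levels were 0.833 and 0.735 FPKM (70 to 71 and 56 to 57 reads). Pax9 passed 2-fold in no comparison. In FPKM its level was 1.85-fold higher in 2i-MEFs (interval 1.25 to 2.82) and 2.36-fold higher with DMSO (interval 1.61 to 3.44). With GSK126 it was 1.13-fold (interval 0.794 to 1.66), and no difference was detectable at this depth. The log2 ratios of FPKM + 1 were 0.52, 0.56 and 0.08, which understate a change at levels near 1 FPKM. In heart Pax9 had 0.05002 FPKM in WT, against 0.0615 FPKM in Dnmt3a KO, and in liver at 0.115 and 0.166 FPKM, on at most 17 reads.

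**Figure D3:**
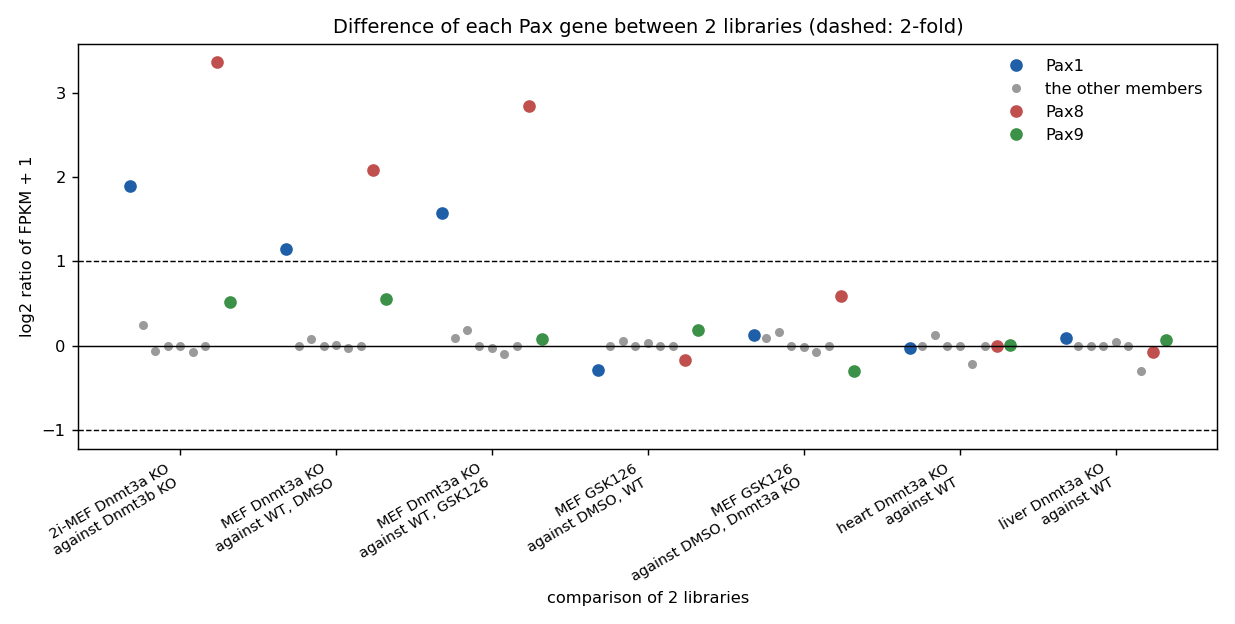
Log2 ratio of FPKM + 1 (vertical axis) of each of the 9 members in the 7 comparisons of 2 libraries (horizontal axis), with Pax8 in red, Pax1 in blue, Pax9 in green and the other members in grey; dashed lines mark 2-fold. Only Pax8 and Pax1 lie beyond a dashed line, in the 3 fibroblast comparisons of Dnmt3a KO, and all members lie between the lines in the GSK126, heart and liver comparisons. In heart and liver all members were under 1 FPKM, where a ratio of FPKM + 1 cannot reach 2-fold.

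GSK126 was compared with DMSO within each genotype of MEFs, which share libraries with the comparisons above. In WT MEFs 0 of 9 members were 2-fold higher, beside 0.559% of symbols, and 0 were lower, beside 0.408%. In the MEFs labelled Dnmt3a KO 0 members were higher, beside 0.522%, and 0 were lower, beside 0.846%. Pax8 was at 0.101 FPKM with GSK126 and 0.236 FPKM with DMSO in WT MEFs, which stands on at most 10 reads in either library. In the MEFs labelled Dnmt3a KO it was at 6.92 and 4.24 FPKM, 1.63-fold higher with GSK126 (interval 1.09 to 2.42). Pax1 was 1.103-fold as high with GSK126 in these MEFs (interval 0.965 to 1.26) and 0.786-fold as high in WT MEFs (interval 0.608 to 1.02), and both intervals include 1 at the fewest reads. Pax9 was 0.668-fold as high with GSK126 in the MEFs labelled Dnmt3a KO (interval 0.495 to 0.908) and 1.39-fold as high in WT (interval 0.890 to 2.12). The interval of Pax8 in WT MEFs with GSK126 reached 0.669 FPKM, below the 3.14 FPKM at which the interval of the MEFs labelled Dnmt3a KO with DMSO began.

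In heart and liver no member reached 1 FPKM. In heart 0 of 9 members were 2-fold higher in the library labelled Dnmt3a KO, beside 0.576% of symbols, and 0 were lower, beside 0.488%. In liver 0 were higher, beside 0.351%, and 0 were lower, beside 0.581%. A gene under 1 FPKM in both libraries cannot reach 2-fold in FPKM + 1, so no member could pass in heart or liver. In FPKM, Pax7 was 0.0291-fold as high in Dnmt3a KO liver as in WT liver (interval 0 to 0.516). For Pax8 in heart, a count of 0 at this depth leaves room for up to 0.453 FPKM in WT and 0.556 FPKM in Dnmt3a KO (upper ends of the intervals), both below the 4.24 FPKM of MEFs labelled Dnmt3a KO with DMSO.

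The Dnmt3a label was also tested over its 4 pairs in MEFs and tissues, with the setting (DMSO, GSK126, heart or liver) as a block in limma, a linear model of log2(FPKM + 1) fitted across all genes. The settings stand in for replicates here, heart and liver come from the same embryos, and the directions rest on the labels. Whether the DMSO and GSK126 cultures share embryos is not known, so a fit of MEFs may hold no spread between embryos. Over the 8 libraries 0 of the 8 members above 0 passed an adjusted p of 0.05, as did 0% of 26234 symbols, while 4.78% had an unadjusted p below 0.05. Pax8 was higher by 1.22 (interval -0.34 to 2.77, adjusted p = 0.806 by limma), and its values in heart and liver are at or near 0 under both labels. Pax1 was higher by 0.69 (interval -0.19 to 1.57, adjusted p = 0.806 by limma). In the 4 MEF libraries alone, which leave 1 residual degree of freedom, the estimates were 2.47 for Pax8 (interval 1.60 to 3.33, unadjusted p = 0.00130 by limma) and 1.36 for Pax1 (interval 0.80 to 1.92, unadjusted p = 0.00240 by limma). Neither passed after adjustment over 23324 symbols (adjusted p = 0.301 and 0.322 by limma), which 0.00429% of symbols, the gene Gm6472 alone, did pass. Before adjustment 9.08% of symbols were below 0.05. The 2i-MEF pair has no partner in such a fit.

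The other members of the group that holds Pax8 were nearly silent. Pax2, which acts with Pax8 in the kidney, was at 0.190 FPKM in Dnmt3a KO 2i-MEFs (3 to 9 reads) and 0.0653 FPKM in the MEFs labelled Dnmt3a KO with GSK126 (2 to 6 reads), and was listed at 0 in the other 8 libraries. These are libraries in which Pax8 was high, but the reads are few. Pax5, the B cell factor, was at 0.0537 FPKM in WT liver and 0.0902 FPKM in Dnmt3a KO liver, on at most 18 reads. In MEFs Pax5 was at most 0.0198 FPKM, and it was listed at 0 in both heart libraries and both 2i-MEF libraries. Of the 15 genes of the B cell list, 13 were under 1 FPKM in both liver libraries.

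Pax3 and Pax7, the muscle and neural crest pair, differed in where they were found. Pax3 was between 0.127 and 0.349 FPKM in the 6 fibroblast libraries, highest in the MEFs labelled Dnmt3a KO with GSK126 (21 to 27 reads), and its ratio passed 2-fold in no comparison. It was at 0.0901 FPKM in Dnmt3a KO heart and listed at 0 in the other 3 tissue libraries. Pax7 was seen in liver alone, at 0.236 FPKM in WT (9 to 35 reads) and 0.00687 FPKM in Dnmt3a KO (at most 1 read). The WT liver library also held skeletal muscle genes. Myog and Myod1, regulators of muscle differentiation, were at 6.31 and 2.55 FPKM in WT liver, and Myog was at 0.150 FPKM and Myod1 listed at 0 in Dnmt3a KO liver. Of 5 skeletal muscle markers (Acta1, Ckm, Myh3, Tnnt3 and Myl1), 4 reached 1 FPKM in WT liver and 0 in Dnmt3a KO liver, with sums of 71.8 and 2.07 FPKM. The part of these muscle genes in the Pax7 difference was not tested.

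Pax6, a factor of eye, brain and pancreas, was highest in heart, at 0.386 FPKM in WT (2 to 31 reads) and 0.198 FPKM in Dnmt3a KO (1 to 13 reads). In fibroblasts it was between 0 and 0.123 FPKM, and in liver it was listed at 0. Pax4, a factor of pancreatic beta cells, was listed at 0 in all 10 libraries.

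Genes beside Pax8 were examined to see whether its difference extended along the chromosome. Gm13415, a noncoding gene on the opposite strand from 24440418 to 24486855 of chromosome 2, overlaps Pax8. It had 2.27 FPKM in Dnmt3a KO 2i-MEFs, against 0.0377 FPKM in Dnmt3b KO 2i-MEFs. In the MEFs labelled Dnmt3a KO it was at 0.332 FPKM with DMSO and 0.295 FPKM with GSK126, and in WT at 0.0192 and 0.0894 FPKM. Gm13415 was thus higher in the same libraries as Pax8, at a lower level. Whether strand was used when reads were counted is not given in the sources used here, although the libraries were made with a kit that keeps strand, so how reads of the overlapping pair were divided is not known. Psd4, an exchange factor for ARF6 whose gene ends 5.61 kb from Pax8, did not follow. It was at 9.91 and 12.5 FPKM in Dnmt3a KO and Dnmt3b KO 2i-MEFs. In MEFs labelled Dnmt3a KO and WT it was at 9.96 and 7.21 FPKM with DMSO, and with GSK126 at 4.63 and 8.70 FPKM. Psd4 was highest in liver, at 35.7 and 33.5 FPKM, where Pax8 was at or near 0. The pseudogenes Gm13418 and Gm27193 were at most 0.105 FPKM.

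**Figure D4:**
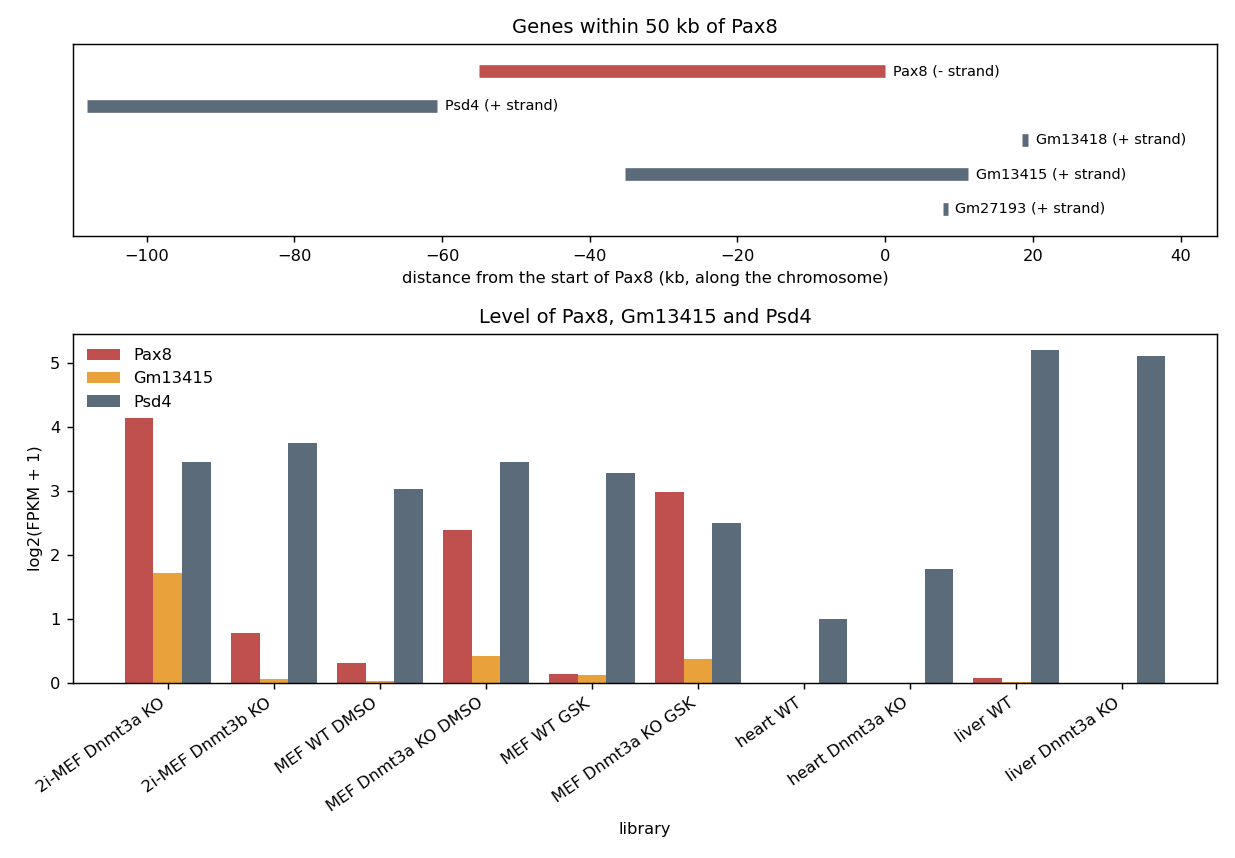
Upper panel, position of Pax8 and of the 4 genes within 50 kb of it, in kb from the start of Pax8, with their strands; lower panel, log2(FPKM + 1) of Pax8, the overlapping Gm13415 and the neighbour Psd4 in each of the 10 libraries. Gm13415 bars are highest where Pax8 bars are highest, whereas Psd4 is highest in the liver libraries.

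Other members overlap noncoding genes as well. AI646519, antisense to the 5′ part of Pax1, was at 0.607 FPKM in Dnmt3a KO 2i-MEFs, 0.343 FPKM in WT MEFs with GSK126 and 1.26 FPKM in the MEFs labelled Dnmt3a KO with GSK126, and was listed at 0 in the other 7 libraries. Gm15524, antisense to Pax9, was at 0.349 FPKM in Dnmt3a KO 2i-MEFs and 0.212 FPKM in WT MEFs with DMSO. Slc25a21, a mitochondrial carrier whose gene ends within Pax9, was at 29.2 and 41.4 FPKM in WT and Dnmt3a KO liver and at most 1.49 FPKM elsewhere. Pax9 was at 0.115 and 0.166 FPKM in those liver libraries, and what reads of Slc25a21 add to its value was not tested. All 8 genes that overlap Pax2, Pax5 or Pax6, among them Pax6os1, were listed at 0 in all 10 libraries.

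Genes known to act with or under the Pax proteins were read from 6 lists of 88 genes in all, none of them a member. In 2i-MEFs 9 of the 88 were 2-fold higher and 3 lower in Dnmt3a KO, beside 1.43% and 0.906% of all symbols and 4.86% and 3.06% of genes whose mean over the pair was 1 FPKM or more, a level that 39 of the 88 reach. In MEFs labelled Dnmt3a KO 5 were higher and 5 lower with DMSO, beside 1.11% and 0.528% of symbols and 3.82% and 1.81% of genes at that level. With GSK126 6 were higher and 5 lower, beside 0.745% and 0.764% of symbols and 2.51% and 2.55% of genes at that level. With GSK126 against DMSO, 0 were higher and 1, Eya2, was lower in WT MEFs (0.559% and 0.408% of symbols), and 0 in either direction in those labelled Dnmt3a KO (0.522% and 0.846%). In heart 0 passed in either direction (0.576% and 0.488% of symbols), and in liver 0 were higher and 3 lower (0.351% and 0.581%). Many of the 88 genes are nearly silent, with 47 under 1 FPKM in both libraries in 2i-MEFs. Their median log2 ratio therefore lay between -0.04 and 0.00 in the 7 comparisons, beside 0.00 for all symbols. Over those at that level it was 0.43 in 2i-MEFs, 0.09 in MEFs with DMSO and 0.18 with GSK126, beside 0.02, 0.04 and 0.01 for all genes at that level. It was -0.01 and 0.00 for GSK126 in WT and Dnmt3a KO MEFs, beside 0.00 and -0.04. In heart and liver it was 0.03 and -0.24, beside 0.00 and -0.08.

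Of the 13 genes of the sclerotome and palate list, which act beside or under PAX1 and PAX9, 5 were 2-fold higher and 0 lower in Dnmt3a KO than in Dnmt3b KO 2i-MEFs, with a median log2 ratio of 0.94. Over the 12 of them at a mean of 1 FPKM or more the median was 0.95, beside 0.02 for all such genes, of which 4.86% were 2-fold higher and 3.06% lower. Col2a1, the cartilage collagen, was at 20.8 and 1.29 FPKM. Nkx3-2, a sclerotome factor downstream of PAX1 and PAX9, was at 4.10 and 0.216 FPKM. Msx1, a factor of palate and tooth, was at 4.54 and 0.691 FPKM. In MEFs labelled Dnmt3a KO 3 genes of the list were higher and 3 lower with each of DMSO and GSK126, with medians of 0.38 and 0.40. Of all genes at a mean of 1 FPKM or more, 3.82% were higher and 1.81% lower with DMSO, and 2.51% and 2.55% with GSK126. Over the 11 genes at a mean of 1 FPKM or more these medians were 0.17 and 0.16, beside 0.04 and 0.01 for all such genes. Nkx3-2 was higher again, at 4.11 FPKM beside 0.806 FPKM with DMSO and at 4.11 FPKM beside 0.715 FPKM with GSK126. Col2a1 was higher too, at 196.1 beside 60.2 FPKM and at 223 beside 79.7 FPKM, as was Meox1, a somite factor, at 10.1 beside 2.33 FPKM and at 16.04 beside 5.27 FPKM. Col2a1 and Nkx3-2 were thus on the side of Pax1 and Pax8 in each of the 3 comparisons. The list was chosen with earlier results of these data known, and this shared direction was not tested.

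The list did not move as one. Msx1, higher in Dnmt3a KO 2i-MEFs, was lower in the MEFs labelled Dnmt3a KO, at 0.832 beside 4.17 FPKM with DMSO and 0.899 beside 7.38 FPKM with GSK126. Osr2, a palate factor, was at 10.3 beside 30.9 FPKM with DMSO and at 10.3 beside 29.9 FPKM with GSK126. Tbx18, a somite factor, was at 1.72 beside 4.59 FPKM and at 1.49 beside 4.39 FPKM.

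**Figure D5:**
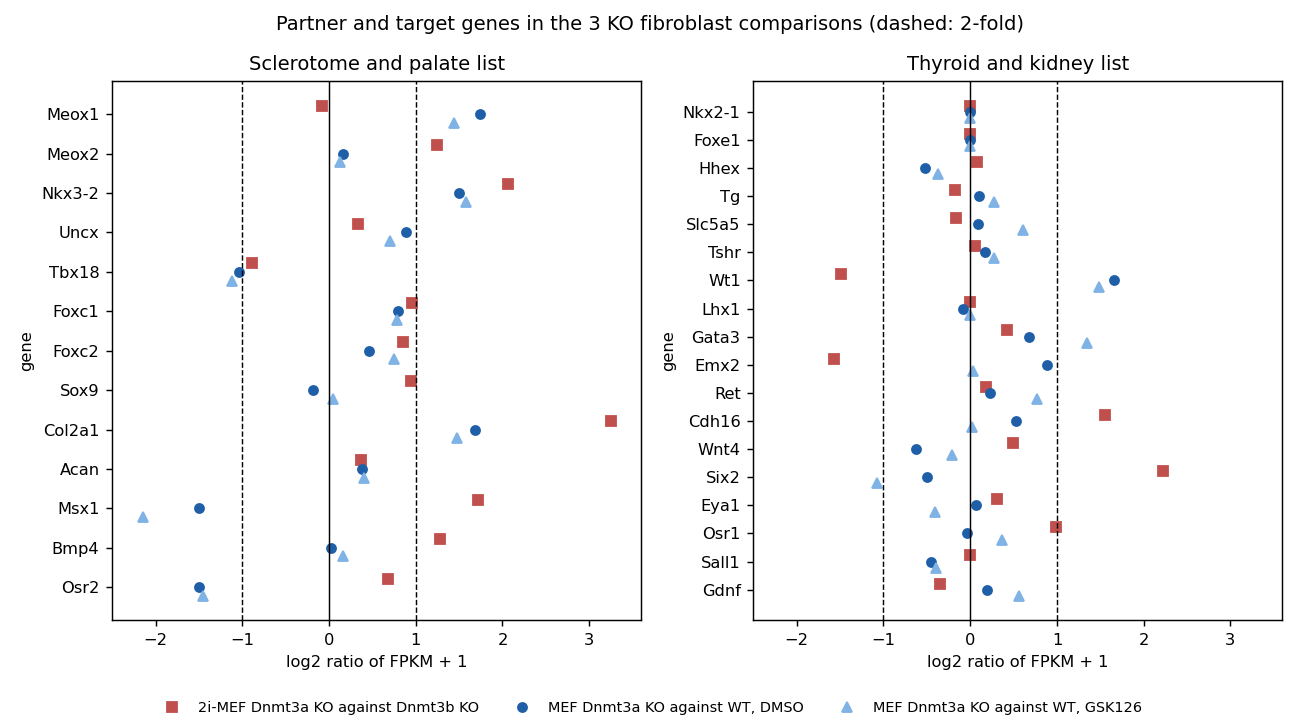
Log2 ratio of FPKM + 1 (horizontal axes) of the 13 genes of the sclerotome and palate list (left) and of the genes of the thyroid and kidney list that are reported here (right) in the 3 fibroblast comparisons of Dnmt3a KO, red squares for 2i-MEFs, dark blue circles for MEFs with DMSO and light blue triangles for MEFs with GSK126; dashed lines mark 2-fold. Nkx3-2 and Col2a1 lie beyond 2-fold in all 3 comparisons, and no gene plotted from the thyroid and kidney list does so on the same side.

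The thyroid and kidney list holds 20 genes that act with or under PAX8. In 2i-MEFs 3 were 2-fold higher and 2 lower in Dnmt3a KO, beside 1.43% and 0.906% of symbols and 4.86% and 3.06% of genes at a mean of 1 FPKM or more, and the list's median log2 ratio was 0.03. Of the 20 genes, 11 were under 1 FPKM in both libraries, and over the 8 at a mean of 1 FPKM or more the median was 0.46, beside 0.02 for all such genes. Among the higher genes were Six2, a factor of nephron progenitors (9.34 beside 1.22 FPKM), and Cdh16, a cadherin of kidney and thyroid epithelium (1.94 FPKM, and listed at 0 in Dnmt3b KO). The lower genes were Emx2 (9.37 beside 29.9 FPKM) and Wt1 (1.57 beside 6.22 FPKM), both factors of the early kidney. In the MEFs labelled Dnmt3a KO, Wt1 was on the opposite side, at 5.42 beside 1.03 FPKM with DMSO, where it was the only gene of the list past 2-fold (3.82% of genes at that mean were higher and 1.81% lower), and at 4.56 beside 0.982 FPKM with GSK126. With GSK126 Gata3, a factor of kidney ducts, was also higher, at 6.73 beside 2.04 FPKM, and Six2 was lower, at 2.34 beside 6.04 FPKM, which makes 2 higher and 1 lower of the 20, beside 2.51% and 2.55% of genes at that mean. The high Pax8 level thus came with different genes of the list in 2i-MEFs and in MEFs.

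Markers of epithelia that normally use PAX8 were read in the same libraries. Of 5 thyroid markers, Nkx2-1 was listed at 0 in all 10 libraries and Foxe1 in all 6 fibroblast libraries, and the 5 summed to 0.436 and 0.743 FPKM in Dnmt3a KO and Dnmt3b KO 2i-MEFs. The sums in MEFs labelled Dnmt3a KO and WT were 1.80 and 1.54 FPKM with DMSO and 2.42 and 1.30 FPKM with GSK126. The 5 nephric markers, among them Cdh16, Lhx1, Emx2 and Cdh6, summed to 16.7 and 30.7 FPKM in Dnmt3a KO and Dnmt3b KO 2i-MEFs, with 4 and 1 of them at 1 FPKM or more. Emx2, the largest part of both sums, was at 9.37 and 29.9 FPKM, and Lhx1 was at 0.0251 and 0.0299 FPKM. Cdh16 (1.94 FPKM and listed at 0) and Cdh6 (3.31 and 0.583 FPKM) were on the other side. In MEFs labelled Dnmt3a KO and WT the 5 markers summed to 7.54 and 5.89 FPKM with DMSO and to 7.10 and 10.6 FPKM with GSK126, with 2 of 5 at 1 FPKM or more in each. The 7 epithelial markers summed to 3.66 and 10.1 FPKM in the 2i-MEF libraries, where Epcam and Cdh1 were listed at 0. In MEFs labelled Dnmt3a KO and WT they summed to 33.8 and 29.0 FPKM with DMSO and to 64.5 and 31.5 FPKM with GSK126. With DMSO, Krt8 was at 4.62 beside 1.04 FPKM and Krt18 at 8.82 beside 4.13 FPKM under the Dnmt3a KO label, whereas Krt19, the largest part of the sum, was at 19.8 beside 22.6 FPKM. With GSK126 all 3 keratins were higher under the Dnmt3a KO label, with Krt19 at 41.96 beside 23.3 FPKM, Krt18 at 12.3 beside 6.12 FPKM and Krt8 at 9.87 beside 0.998 FPKM. The junction and adhesion genes were not, with Cdh1 at 0.321 beside 0.701 FPKM, Epcam at 0.0257 beside 0.112 FPKM, and Cldn4 and Cldn7 listed at 0 beside 0.0959 and 0.218 FPKM. The part of these thyroid, nephric and epithelial markers in the Pax8 difference was not tested.

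Many genes of the remaining lists were nearly silent in fibroblasts, with 13 of 15 in the B cell list and 15 of 15 in the eye and pancreas list under 1 FPKM in both 2i-MEF libraries. Such genes cannot pass 2-fold in FPKM + 1. Of all genes at a mean of 1 FPKM or more, 4.86% were 2-fold higher and 3.06% lower in 2i-MEFs. These shares were 3.82% and 1.81% in MEFs with DMSO, 2.51% and 2.55% with GSK126, and 1.21% and 2.01% in liver. In the muscle and neural crest list of 14 genes, 0 passed 2-fold in 2i-MEFs, and in MEFs with DMSO only Tfap2a, a neural crest factor, did, with 0.791 FPKM under the Dnmt3a KO label, against 2.66 FPKM in WT. Myog and Myod1 were among the 3 genes lower in Dnmt3a KO liver. In the B cell list of 15 genes, Ebf1 was higher (34.7 beside 14.9 FPKM) and Lef1 lower (1.25 beside 5.63 FPKM) in Dnmt3a KO 2i-MEFs, and 0 passed in the other 6 comparisons. In the eye and pancreas list of 15 genes, only Isl1 passed, lower in the MEFs labelled Dnmt3a KO at 1.16 beside 5.78 FPKM with DMSO and 1.19 beside 5.70 FPKM with GSK126. Among 11 cofactors, Eya4 was higher in the MEFs labelled Dnmt3a KO with DMSO (14.7 beside 6.87 FPKM) and Eya2 with GSK126 (10.5 beside 3.69 FPKM), both members of the Eya family of transcriptional coactivators. Eya4 stood at the threshold, with a log2 ratio of 1.001, and did not pass when ratios were centred on the median gene.

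The genes whose pattern was most like that of Pax8 over the 10 libraries were found by Pearson's correlation of log2(FPKM + 1) among 16896 genes that reached 1 FPKM in a library. They were Pcp4 (r = 0.938), a calmodulin regulator, Syngr3 (r = 0.938), a synaptic vesicle protein, Tbx1 (r = 0.936), a factor of the pharyngeal pouches, Nkx3-2 (r = 0.923) and Mylk2 (r = 0.922), a myosin kinase of skeletal muscle. Tbx1, for example, had 5.51 FPKM in Dnmt3a KO 2i-MEFs, against 0.484 FPKM in Dnmt3b KO 2i-MEFs. In MEFs labelled Dnmt3a KO and WT it was at 4.73 and 0.988 FPKM with DMSO, and with GSK126 at 3.12 and 0.721 FPKM. Among the members, Pax9 ranked 52nd (r = 0.830) and Pax1 147th (r = 0.774). These values describe 10 libraries that differ in tissue and strain, and a gene that is low in heart and liver gains likeness from that alone.

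Of the 751 symbols 2-fold higher in Dnmt3a KO 2i-MEFs and the 580 higher in MEFs labelled Dnmt3a KO with DMSO, 72 were shared, which is 9.59% of the first list and 12.4% of the second. Over all symbols 1.11% are in the second list, and over genes at a mean of 1 FPKM or more 3.82% are. The MEF directions rest on the label, and with the MEF labels turned 35 of the 751 were shared with the 277 symbols on the other side, which is 4.66% of the first list and 12.6% of the second, beside 0.528% of all symbols in the second. The share of the MEF list was thus about the same with either reading of the labels, and the overlap was not tested. Pax1 and Pax8 are among the 72. They are also among the 24 symbols higher in all 3 fibroblast comparisons, which is 17.6% of the 136 symbols higher in both MEF comparisons, 0.259% of all symbols. With the MEF labels turned in both, 11 symbols were shared, which is 11.8% of 93 symbols, 0.177% of all.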

How the data were processed

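RNA-seq data of 10 mouse libraries, 1 per condition, were used; the series also lists 16 samples of DNA methylation, not analysed here. Reads were trimmed by the authors and mapped to mm10 with the GENCODE M15 annotation, and the FPKM calculated from them were deposited as 1 table without counts; the submitters' processing notes name TopHat2 2.1.0 and Cufflinks 2.2.1, and the study's methods name another version of the aligner.

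Rows of the same symbol were summed (155 rows repeat a symbol), and 1 was added to the table's starts, which are counted from 0. Transcript lengths and strands came from GENCODE M21. Depth and reads were estimated from the spacing of low FPKM values of 6716 genes with 1 transcript, at the same fragment length in all libraries, and were checked on simulated data. Libraries were compared within 7 pairs by the log2 ratio of FPKM + 1, with a 2-fold threshold. Intervals are exact Poisson intervals for a level and exact conditional (Clopper-Pearson) intervals for a fold, at 95%. With 1 library per condition no test can be made within a pair. The Dnmt3a label over 4 pairs (8 libraries) was tested with limma 3.58.1 in R 4.3.3 on log2(FPKM + 1) of symbols above 0 in a library, with the setting as a block, a trend and Benjamini-Hochberg adjustment over all of them; this fit was chosen after the data were seen and tested on simulated data. Fold intervals between all pairs of libraries for Pax8, at the fewest and the most reads, and overlaps with the MEF labels turned were added after the data were seen. Other settings tried were 0.1 as pseudocount, centring of the ratios on the median gene (1 FPKM or more in both libraries), a 1.5-fold threshold, a filter on a mean of 1 FPKM, Spearman's correlation and a fragment length fitted to each library.

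The members and gene lists were chosen with earlier results of these data known. Genes named are the 9 members, Dnmt3a, Dnmt3b and Xist, genes that overlap a member or lie within 50 kb of Pax8, the 5 genes most like Pax8, up to 3 genes in each direction per list and comparison with the largest ratio past 2-fold, and markers. Some genes of the lists enter the counts but are not reported here by name. Python 3.11.15, numpy 2.4.6, pandas 2.3.3, scipy 1.17.1 and matplotlib 3.10.9 were used.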

Additional observations from a re-analysis of the deposited data

Results flagged for a closer look

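For 3 members, the log2 ratio of GSK126 against DMSO had opposite signs in WT MEFs and in the MEFs labelled Dnmt3a KO, with a size of at least 0.1 in both. Pax8 had a ratio of -0.17 in WT MEFs and 0.59 in the MEFs labelled Dnmt3a KO. Pax1 had -0.29 and 0.13, respectively. Pax9 went the other way, with 0.18 in WT and -0.29 in the MEFs labelled Dnmt3a KO. None of these ratios reached 2-fold, each rests on 1 library per condition, and the difference between the genotypes was not tested. Pax8 in WT MEFs stands on at most 10 reads.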

How the results depend on the processing

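With the setting as a block, which pairs the libraries labelled Dnmt3a KO and WT, over MEFs, heart and liver, Pax8 was higher under the Dnmt3a KO label by 1.22 on the log2 scale (adjusted p = 0.806 by limma) and in MEFs alone by 2.47 (adjusted p = 0.301 by limma). With 1 library per condition the ratios have no replicate spread, and counting error is their only measured error; most members are too low for a difference of less than several fold to be seen. Of 21 ratios of Pax1, Pax8 and Pax9, 0 changed sign with a pseudocount of 0.1, and 1, Pax8 in liver, changed sign when centred (from -0.07 to 0.01). Only 8 of the 21 stayed within their counting error with a pseudocount of 0.1, and the changes ran from -0.57 to 2.28. All 21 did so when centred. With a pseudocount of 0.1 the log2 ratio of Pax8 was 4.36 in 2i-MEFs, 3.69 in MEFs with DMSO and 5.13 with GSK126, -0.74 for GSK126 in WT MEFs and -0.58 in liver. Members at least 2-fold higher were then 3 in 2i-MEFs, with Pax2, and 3 in MEFs with DMSO, with Pax9, and 1, Pax7, was lower in liver. At 1.5-fold, 1 member, Pax8, was higher with GSK126 in the MEFs labelled Dnmt3a KO. With a pseudocount of 0.1, partner and target genes past 2-fold were 18 higher and 7 lower in 2i-MEFs, 10 and 9 in MEFs with DMSO and 11 and 8 with GSK126. They were 5 and 2 for GSK126 in WT MEFs, 7 and 1 for GSK126 in those labelled Dnmt3a KO, 3 and 4 in heart, and 3 and 11 in liver, since a smaller pseudocount lets genes with few reads pass. The share of all symbols that pass was not calculated with a pseudocount of 0.1 or at 1.5-fold. The counts of members and list genes under these settings thus have no background beside them. By Spearman's correlation, 1 of the 5 genes most like Pax8, Syngr3, was again among the first 5. Pax9 then ranked 111th (0.914) and Pax1 563rd (0.855). A fragment length fitted to each library changed depth by at most 0.38%.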
